A study of Mus musculus with 9 samples.

Results

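The genes of 6 fibroblast growth factor (FGF) ligands, Fgf1, Fgf2, Fgf7, Fgf10, Fgf18 and Fgf21, and of the 4 FGF receptor tyrosine kinases, Fgfr1 to Fgfr4, were followed in mouse liver stroma before and after birth. These 10 genes were chosen by name, out of 19938 genes measured, and each was read from its single probe set. Cells were sorted from livers of C57BL/6 mice of genotype Cxcl12DsRed/+, in which a red fluorescent reporter marks expression of the chemokine gene Cxcl12, as CD45- Ter119- DsRed+ cells. The stages were the embryonic stage E15.5 and the postnatal stages P5 and P10, in days after birth, with 3 Affymetrix arrays each. All 9 samples carried the reporter allele and passed the same gate, which removes blood cells bearing CD45 or Ter119. The labels call the arrays of a stage independent replicates without naming animals or pools, so the tests measure only the spread among these arrays, which may be technical.

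FGFs are secreted proteins that bind receptor tyrosine kinases at the cell surface. Most act locally and need heparan sulphate, a sugar chain of the matrix and cell surface, to engage the receptor, whereas FGF21 and mouse FGF15 act as hormones and need a klotho protein as co-receptor. Receptor activation runs through the adaptor FRS2 to the RAS-MAPK cascade, which switches on feedback inhibitors such as the Sprouty and dual-specificity phosphatase genes. In the liver, FGFs and their receptors take part in outgrowth of the hepatic bud, in stellate cell biology and in bile acid and fasting metabolism.

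Values are log2 signals, so a difference of 1 is a doubling, and a gene was called when its limma adjusted p over all genes was under 0.05. The median log2 signal over all probe sets moved with stage, from 6.44 to 6.45 on the E15.5 arrays, 6.27 to 6.36 at P5 and 6.22 to 6.26 at P10. Markers of several liver cell types were present in the sorted cells. The mean log2 signal of 9 hepatocyte markers ranged from 8.47 to 8.64 on the E15.5 arrays, 12.16 to 12.30 at P5 and 12.44 to 12.60 at P10. This list was split at E15.5. There Alb, Ttr and Apoa1 had means of 13.14, 13.17 and 13.11, and Cyp2e1, Fbp1 and Tat of 5.53, 5.42 and 5.68, with Hnf4a, Cps1 and Pck1 between. The mean of 9 hepatic stellate cell markers ranged from 9.73 to 9.89 at E15.5, 7.67 to 8.08 at P5 and 7.40 to 7.62 at P10. Of 6 macrophage and blood markers, Ptprc, the gene of CD45, Adgre1 and Cd5l lay under percentile 30 of all genes on all 9 arrays, and the erythroid genes Slc4a1 and Klf1 and the macrophage gene Cd68 above it on all 9. At P5 and at P10 against E15.5, 0 of the 6 rose and 2 fell, namely Slc4a1 (-1.47 and -1.71) and Cd68 (-0.77 and -1.09). P5 arrays 2 and 3 stood apart in 8 sinusoidal endothelial markers, with means of 8.11 and 8.48 against 6.49 on P5 array 1, and results at P5 are given without them where a call changed. The Y-linked gene Eif2s3y had log2 signals from 7.94 to 9.24 on E15.5 array 3, P5 arrays 2 and 3 and P10 array 1, and from 3.96 to 4.14 on the other arrays. Xist, a gene of female cells, had 10.16 on E15.5 array 3, near its 10.51 and 10.64 on E15.5 arrays 1 and 2. On P5 arrays 2 and 3 and P10 array 1 it had 6.16, 5.03 and 5.09, and on P5 array 1 and P10 arrays 2 and 3 8.75, 7.81 and 7.98. Whether E15.5 array 3 held cells of both sexes was not tested.

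At P10 against E15.5, Fgf1 rose 10.2-fold while the receptor genes Fgfr2 and Fgfr1 fell by several fold, and Fgf18, Fgf10, Fgf21 and Fgfr3 changed by less. Of the 10 genes, 2 rose and 5 fell at P10 against E15.5, where limma called 38.7% of all genes (20.1% higher and 18.6% lower). At P5 against E15.5, 2 rose and 4 fell, against 35.6% of all genes called (17.9% higher and 17.7% lower). At P10 against P5, 0 rose and 1 fell, where 5.65% of all genes were called (2.76% higher and 2.89% lower). The moderated F test over the 3 stages called 7 of the 10, against 38.3% of all genes. The 3 arrays of 1 stage lay wholly to 1 side of those of the other for 7 of the 10 genes at P5 against E15.5, 7 at P10 against E15.5 and 5 at P10 against P5, as they did for 45.2%, 51.7% and 20.2% of all genes. Both comparisons against E15.5 share the E15.5 arrays and are not independent. The median difference of the 10 genes was -0.17 at P5 and -0.24 at P10 against E15.5, beside 0.03 and 0.02 over all genes. After centring each array on its median gene, 65.6% of called genes were higher at P10 than at E15.5, against 51.8% as deposited, and at P10 against P5 63.5%, against 48.8%.

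**Figure D1:**
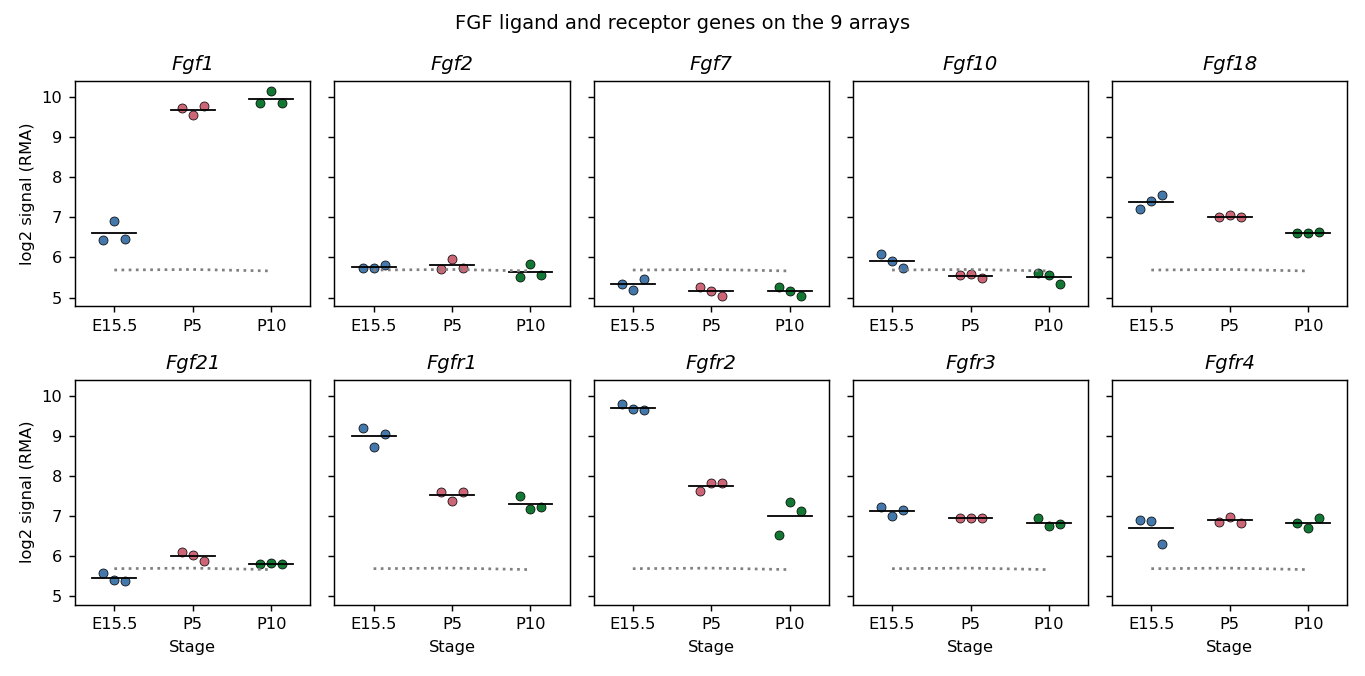
Log2 signal of each of the 10 genes (vertical axis) on the 3 arrays of each stage (horizontal axis), with points for arrays, bars for stage means and a dotted line at the mean percentile 30 of all genes. Fgf1 is high and Fgfr1 and Fgfr2 are low on every postnatal array, and Fgf7 lies under the dotted line throughout.

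Among the ligands, Fgf1, the acidic FGF that can bind all 4 receptors, changed most. Its log2 signals were 6.44, 6.91 and 6.46 on the E15.5 arrays, 9.73, 9.55 and 9.78 at P5 and 9.86, 10.15 and 9.85 at P10. All postnatal arrays lay above all E15.5 arrays, and those of P10 above those of P5. The difference was 3.09 ± 0.15 at P5 (SE, n = 3 per stage, 8.5-fold, limma adjusted p = 1.17e-06) and 3.35 ± 0.15 at P10 (10.2-fold, limma adjusted p = 4.8e-07) against E15.5. Between P10 and P5 the difference of 0.26 ± 0.15 did not pass (limma adjusted p = 0.417). The 9 hepatocyte markers moved with Fgf1: 8 of them rose and 0 fell at P5, and 7 rose and 0 fell at P10, against E15.5, with Alb, near the top of the scale, at mean log2 signals of 13.14 (E15.5), 13.20 (P5) and 13.13 (P10). Their part in the Fgf1 result was not tested. In bulk RNA, fewer cells of a type and less RNA per cell cannot be told apart, here and in the results that follow.

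Fgf21, a fasting hormone of the liver that acts through FGFR1 with beta-klotho, also rose, by far less. It had log2 signals of 5.58, 5.41 and 5.38 at E15.5, 6.11, 6.02 and 5.88 at P5 and 5.81, 5.82 and 5.80 at P10. No postnatal array fell within the E15.5 range, and all P10 arrays lay below all P5 arrays. Against E15.5 the difference was 0.55 ± 0.079 at P5 (1.46-fold, limma adjusted p = 0.000715) and 0.35 ± 0.079 at P10 (1.28-fold, limma adjusted p = 0.00698), and P10 against P5, at -0.20 ± 0.079, did not pass (limma adjusted p = 0.228). Its 3 E15.5 values were under percentile 30 of all genes, and with values under that percentile set to it the P10 difference was 0.12 and no longer passed (limma adjusted p = 0.173).

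Fgf18 and Fgf10 fell after birth. Fgf18, a ligand best known from skeletal and lung development, had log2 signals of 7.21, 7.40 and 7.56 at E15.5, 7.0, 7.06 and 7.0 at P5 and 6.62, 6.61 and 6.64 at P10. The 3 stages did not overlap and stood in the order of age. Of the 3 P5 values, 2 were exactly equal, a tie that lowers the estimated spread. The difference was -0.37 ± 0.086 at P5 (limma adjusted p = 0.0098) and -0.77 ± 0.086 at P10 (1.7-fold lower, limma adjusted p = 0.000132) against E15.5. Without P5 arrays 2 and 3 the P5 difference of -0.39 did not pass (limma adjusted p = 0.0762). Fgf18 was also the gene called at P10 against P5 (-0.40 ± 0.086, limma adjusted p = 0.0353). That call ended when E15.5 array 2 or any 1 of the P5 and P10 arrays was left out (limma adjusted p from 0.0577 to 0.113), with differences from -0.41 to -0.38. Without P5 arrays 2 and 3, which leaves 1 P5 array, the P10 minus P5 difference was -0.375.

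Fgf10, a mesenchymal ligand of the epithelial form of FGFR2 that acts in organ budding, had log2 signals of 6.09, 5.92 and 5.73 at E15.5, 5.55, 5.58 and 5.49 at P5 and 5.62, 5.56 and 5.34 at P10. The postnatal arrays lay below every E15.5 array and all 6 were under percentile 30 of all genes. The difference was -0.38 ± 0.11 at P5 (limma adjusted p = 0.0232) and -0.41 ± 0.11 at P10 (limma adjusted p = 0.0149) against E15.5. The P5 call ended without E15.5 array 1 or 2 or P5 array 1 or 3 (limma adjusted p between 0.0544 and 0.0729), with Eif2s3y as a covariate (limma adjusted p = 0.0544), and when P5 arrays 2 and 3 were both left out (limma adjusted p = 0.16). The P10 call ended without P10 array 3 (limma adjusted p = 0.0524), and with values under percentile 30 set to it neither call held (limma adjusted p = 0.0968 at P5 and 0.0531 at P10).

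Fgf2 and Fgf7 passed in no contrast. Fgf2, the basic FGF and a mitogen of fibroblasts, had log2 signals of 5.73, 5.73 and 5.82 at E15.5, 5.72, 5.96 and 5.73 at P5 and 5.5, 5.83 and 5.55 at P10, with 3 arrays under percentile 30. Its stages overlapped, and the P10 minus E15.5 difference of -0.13 had a 95% interval from -0.37 to 0.11. Fgf7, the keratinocyte growth factor made by mesenchyme, had 5.34, 5.2 and 5.46 at E15.5, 5.27, 5.16 and 5.04 at P5 and 5.26, 5.16 and 5.05 at P10. All 9 Fgf7 values were under percentile 30, and the P10 minus E15.5 difference of -0.18 had a 95% interval from -0.39 to 0.04. At such dim signals a change in RNA may not be detectable on these arrays.

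Among the receptors, Fgfr2, whose splice forms serve FGF7 and FGF10 on epithelium and other ligands on mesenchyme, fell most. Its log2 signals were 9.81, 9.68 and 9.65 at E15.5, 7.63, 7.82 and 7.82 at P5 and 6.53, 7.34 and 7.12 at P10. The stages did not overlap, and P10 array 1 was the lowest. As for Fgf18, 2 of the 3 P5 values were exactly equal. The difference was -1.95 ± 0.18 at P5 (3.87-fold lower, limma adjusted p = 6.24e-05) and -2.71 ± 0.18 at P10 (6.56-fold lower, limma adjusted p = 6.39e-06) against E15.5. P10 against P5, at -0.76 ± 0.18, missed the threshold (limma adjusted p = 0.0527). Without P10 array 1 or P10 array 2 it passed, with limma adjusted p = 0.0371 and 0.0351, as it did with dim genes left out (limma adjusted p = 0.0338) and with a trended, robust variance (limma adjusted p = 0.0487). One probe set covers the gene, so the splice forms cannot be told apart.

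Fgfr1, the main receptor of mesenchyme, had log2 signals of 9.21, 8.72 and 9.06 at E15.5, 7.60, 7.37 and 7.59 at P5 and 7.51, 7.17 and 7.22 at P10. Every E15.5 array lay above every postnatal array, while P5 and P10 overlapped. Against E15.5 the difference was -1.48 ± 0.14 at P5 (2.78-fold lower, limma adjusted p = 7.5e-05) and -1.69 ± 0.14 at P10 (3.24-fold lower, limma adjusted p = 2.42e-05). P10 against P5 differed by -0.22 ± 0.14 and did not pass (limma adjusted p = 0.518). Of the 9 stellate cell markers, 0 rose and 9 fell at P5 and at P10 against E15.5, with medians of -2.29 and -2.51, on the same arrays as Fgfr1 and Fgfr2. Their part in the receptor results was not tested.

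Fgfr3, best known as a brake on bone growth, had log2 signals of 7.22, 6.99 and 7.14 at E15.5, 6.95 on each P5 array and 6.94, 6.74 and 6.80 at P10. The stages did not overlap, but the 3 P5 values were exactly equal, a tie that lowers the estimated spread. The P10 minus E15.5 difference was -0.29 ± 0.078 (1.23-fold lower, limma adjusted p = 0.017). It did not pass after quantile normalisation (limma adjusted p = 0.0657), after centring on the median gene (limma adjusted p = 0.061), or without E15.5 array 1 or 3 or P10 array 2 or 3 (limma adjusted p from 0.0524 to 0.0642). The P5 difference of -0.17 ± 0.078 did not pass (limma adjusted p = 0.139).

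Fgfr4, the hepatocyte receptor through which gut-derived FGF15 restrains bile acid synthesis, was called in no contrast. Its log2 signals were 6.91, 6.87 and 6.30 at E15.5, 6.86, 6.98 and 6.83 at P5 and 6.82, 6.69 and 6.96 at P10. The stages overlapped, and E15.5 array 3 was the lowest of the 9. The P10 minus E15.5 difference was 0.13, with a 95% interval from -0.23 to 0.49.

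**Figure D2:**
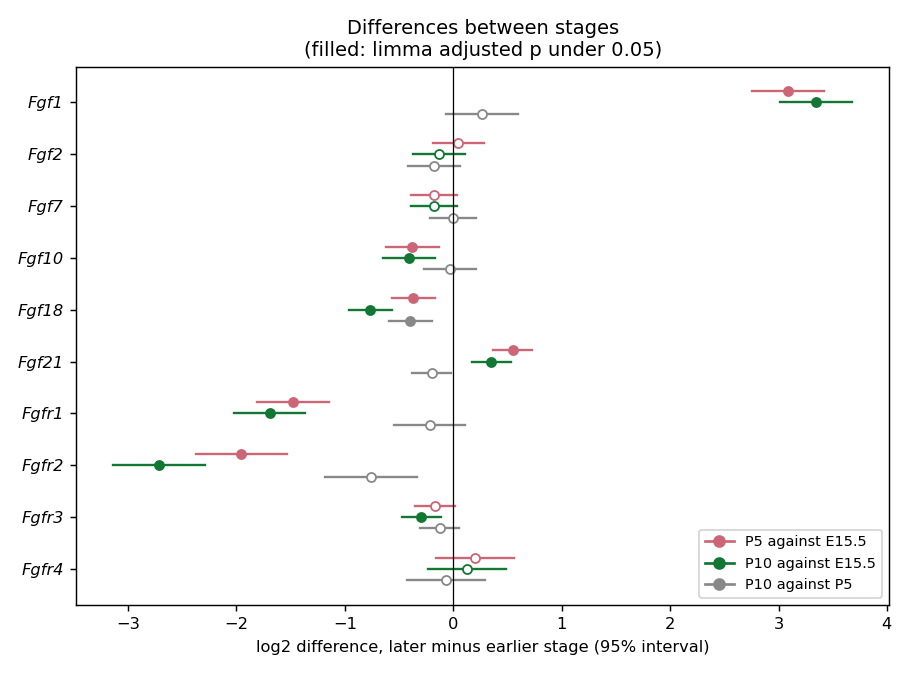
Log2 difference (horizontal axis, later minus earlier stage, with 95% intervals) of each of the 10 genes (vertical axis) in the 3 contrasts, filled where the limma adjusted p was under 0.05. Fgf1 stands to the right at 3.09 and 3.35 and Fgfr2 to the left at -1.95 and -2.71, while the P10 minus P5 differences lie between -0.76 and 0.26.

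Promoter sequences from RefSeq (GRCm38.p6, 250 bases before to 50 after the gene start) were used for 8 of the 10 genes, all but Fgf1 and Fgfr1. The gene that rose most, Fgf1, is therefore missing here. Those of Fgf21, which rose, and of Fgf18 and Fgfr2, which fell, are shown because these genes moved in opposite directions. Capitals mark matches, on either strand, to TATAAA (the TATA box), GGGCGG (the GC box), CCAAT (the CCAAT box), CACGTG (an E-box) and TGATGCAAT, 1 form of the C/EBP-ATF response element.
Fgf21, chr7:45615441-45615740, minus strand: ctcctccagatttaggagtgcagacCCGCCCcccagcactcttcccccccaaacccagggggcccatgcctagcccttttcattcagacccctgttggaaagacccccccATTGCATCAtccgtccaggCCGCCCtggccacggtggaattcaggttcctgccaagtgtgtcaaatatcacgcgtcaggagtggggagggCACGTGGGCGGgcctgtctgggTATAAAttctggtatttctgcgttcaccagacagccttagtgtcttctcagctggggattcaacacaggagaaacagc
Fgf18, chr11:33147351-33147650, minus strand: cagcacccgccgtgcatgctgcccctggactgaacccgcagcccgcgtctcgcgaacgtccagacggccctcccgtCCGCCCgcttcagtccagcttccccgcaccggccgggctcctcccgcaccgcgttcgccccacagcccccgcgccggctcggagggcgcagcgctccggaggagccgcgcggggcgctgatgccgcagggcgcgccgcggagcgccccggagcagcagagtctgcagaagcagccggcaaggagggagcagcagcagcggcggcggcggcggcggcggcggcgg
Fgfr2, chr7:130266759-130267058, minus strand: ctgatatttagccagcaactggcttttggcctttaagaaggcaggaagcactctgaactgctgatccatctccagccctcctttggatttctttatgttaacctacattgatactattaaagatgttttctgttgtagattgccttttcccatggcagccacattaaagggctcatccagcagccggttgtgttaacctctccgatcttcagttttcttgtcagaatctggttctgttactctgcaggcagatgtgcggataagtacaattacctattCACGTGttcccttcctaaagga
The Fgf21 window held 1 TATA box 28 bases before the start, 3 GC boxes, 1 E-box that overlaps a GC box, and 1 match to TGATGCAAT 140 bases before the start. Of 32851 promoters in the table, 13.6% held TATAAA, 35.7% GGGCGG, 37.4% CCAAT, 7.15% CACGTG and 0.192% TGATGCAAT. The Fgf18 window held 1 GC box, and 78.7% of its bases were G or C, against a median of 52.7% over all promoters. The Fgfr2 window held 1 E-box, 28 bases after the start, and 43.7% of its bases were G or C. These matches describe letters only, and no binding was measured.

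Few other ligands of the family passed. Of 12 other secreted ligand genes, 2 rose and 0 fell at P5 and 1 rose and 0 fell at P10 against E15.5, with medians of 0.06 and 0.06. In these comparisons limma called 35.6% (P5) and 38.7% (P10) of all genes. Fgf8, a ligand of early patterning, rose by 0.23 ± 0.057 at P5 and 0.25 ± 0.057 at P10 (limma adjusted p = 0.0136 and 0.00852), and Fgf16, named after its values were seen, by 0.47 ± 0.12 at P5 (limma adjusted p = 0.0131). Both Fgf8 calls ended with a trended, robust variance (limma adjusted p = 0.0717 at P5 and 0.0511 at P10), and that at P5 without P5 arrays 2 and 3 (limma adjusted p = 0.078). Fgf16 lay under percentile 30 on 7 of 9 arrays, and with values under it set to it the P5 difference was 0.049 and did not pass (limma adjusted p = 0.611). After centring on the median gene, 4 of the 12 passed at P5 and 5 at P10. Without E15.5 array 1, 2 of the 12 passed at P10. Without P5 arrays 2 and 3, 1 of the 12 passed at P5. Of the 4 intracellular FGF homologous factor genes, Fgf11 to Fgf14, which are not secreted, 0 passed in either comparison, and all lay under percentile 30 on all 9 arrays.

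Co-receptors and binding partners fell where they changed at P10. Of 10 such genes, 1 rose and 4 fell at P5, and 0 rose and 5 fell at P10, against E15.5, with a P10 median of -0.34. The shares of all genes called were 35.6% at P5 and 38.7% at P10. Flrt2, a leucine-rich repeat transmembrane protein that can bind FGF receptors, had 9.58, 10.01 and 10.08 at E15.5, 7.21 on each P5 array and 5.92, 5.80 and 6.11 at P10. Its stages stood apart in the order of age, with the same kind of tie at P5 as Fgfr3 and a P10 difference of -3.95 ± 0.13 (15.4-fold lower, limma adjusted p = 1.43e-07). The adhesion molecules Cdh2 (-2.90 ± 0.12) and Ncam1 (-2.44 ± 0.12), both reported to bind FGFR1, and Flrt3 (-0.80 ± 0.13) fell as well. Klb, which encodes the beta-klotho co-receptor of FGF21 and FGF15, differed by -0.46 ± 0.16 at P10 (limma adjusted p = 0.0482), a call that held in 6 of 21 alternatives. It ended without E15.5 array 1 or 2, any 1 P5 array, or P10 array 1 or 2 (limma adjusted p from 0.0634 to 0.153), and among the others after quantile normalisation (limma adjusted p = 0.0964) and with the replicate number as a block (limma adjusted p = 0.0954). Kl, the klotho of FGF23, differed by -0.004 ± 0.094 (limma adjusted p = 0.982) and Fgfrl1, a receptor without a kinase, by 0.09 ± 0.067 (limma adjusted p = 0.35), and neither passed. All 9 values of Kl lay under percentile 30, where a change in RNA may not be detectable. Fgfbp1, which releases FGFs from the matrix and was named after its values were seen, had 4.91, 5.08 and 5.18 at E15.5, 6.04, 5.70 and 5.72 at P5 and 5.13, 4.91 and 5.0 at P10. The P5 arrays lay above all others, with differences of 0.76 ± 0.12 at P5 against E15.5 (limma adjusted p = 0.000939) and -0.81 ± 0.12 at P10 against P5 (limma adjusted p = 0.00663). On 7 of 9 arrays the value lay under percentile 30, and neither Fgfbp1 call held with values under that percentile set to it (limma adjusted p = 0.281 and 0.386). Of 6 mesothelial markers, 4 rose and 1 fell at P5 against E15.5. Their mean log2 signal ran from 8.80 to 8.89 at E15.5, 9.87 to 10.21 at P5 and 8.45 to 8.69 at P10. At P5 Msln (2.52), Krt18 (2.20), Krt8 (1.49) and Upk3b (1.22) rose and Wt1 fell (-0.97). At P10 against E15.5 Krt18 (1.82) and Krt8 (1.47) were still higher, as most hepatocyte markers were. There Msln differed by 0.015, and Upk3b (-1.21), Gpm6a (-1.65) and Wt1 (-2.21) fell. Of 4 cholangiocyte markers, 3 rose and 0 fell at P5 against E15.5 and 0 rose and 2 fell at P10 against P5, with means from 6.68 to 7.03 at E15.5, 7.88 to 8.07 at P5 and 7.01 to 7.07 at P10. The part of both lists in the Fgfbp1 result was not tested.

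Most measured enzymes that build and trim heparan sulphate fell. Of 15 measured genes, 1 rose and 11 fell at P5 and 1 rose and 11 fell at P10 against E15.5, with medians of -0.81 and -1.07. Among all genes, 17.7% were called lower at P5 and 18.6% at P10. The 6-O-sulphotransferase gene Hs6st2 (-3.06 ± 0.15 at P10), the extracellular 6-O-endosulphatase genes Sulf1 (-2.77 ± 0.17) and Sulf2 (-2.34 ± 0.15) and the chain polymerase gene Ext1 (-1.24 ± 0.11) had the smallest adjusted p, the largest of these 4 being 2.93e-05. Hs6st1, which encodes another 6-O-sulphotransferase, rose by 0.30 ± 0.074 (limma adjusted p = 0.0108). The 9 stellate cell markers fell on the same arrays, and their part in these decreases and in those of Flrt2, Cdh2 and Ncam1 was not tested.

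Genes that carry the signal inside the cell moved both ways. Against E15.5, 35.6% of all genes were called at P5 and 38.7% at P10. Of 14 measured transducers, 4 rose and 5 fell at P5 and 4 rose and 4 fell at P10 against E15.5, with a P10 median of -0.06. Without E15.5 array 3, or without P5 arrays 2 and 3, 5 in place of 9 passed at P5. At P10 the kinase gene Map2k2 (1.42 ± 0.076), the phosphatase gene Ptpn11 (0.48 ± 0.068) and the adaptor gene Grb2 (0.66 ± 0.10) rose, and the docking protein gene Gab1 fell (-1.35 ± 0.10), the largest limma adjusted p of these 4 being 0.001.

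Target and feedback genes of FGF signalling, which other growth factors also drive, moved in both directions. Over all genes, 35.6% were called at P5 (17.7% lower) and 38.7% at P10 (18.6% lower) against E15.5. Of 22 target and feedback genes, 2 rose and 7 fell at P5 and 2 rose and 11 fell at P10 against E15.5, with medians of -0.21 and -0.46. Without E15.5 array 1, 8 in place of 13 passed at P10. Spry2, an inhibitor of the RAS-MAPK cascade, had 8.26, 8.16 and 8.26 at E15.5, 7.32, 6.96 and 7.23 at P5 and 6.36, 6.90 and 6.25 at P10, and its stages did not overlap (-1.73 ± 0.17 at P10 against E15.5, limma adjusted p = 5.59e-05). The transcription factor gene Etv1 (-2.20 ± 0.12), the phosphatase gene Dusp4 (-0.98 ± 0.10) and Spry3 (-0.66 ± 0.087) fell as well, but all 9 values of Spry3 were under percentile 30, and with values under it set to it the Spry3 difference was -0.025 and did not pass (limma adjusted p = 0.577). The cyclin gene Ccnd1 (0.80 ± 0.17, limma adjusted p = 0.00537) and Spry4 (0.60 ± 0.18, limma adjusted p = 0.0305) rose. The Ccnd1 call ended after quantile normalisation (limma adjusted p = 0.0667), and that of Spry4 without any 1 E15.5 array or P10 array 2 or 3 (limma adjusted p from 0.0514 to 0.0987). Of the 22 genes, 9 did not pass at P10. Among them, named after their values were seen, were Dusp6 (0.28), Etv4 (0.07), Spry1 (-0.24) and Il17rd (-0.12), with limma adjusted p from 0.112 to 0.741. The part of the cell type markers in the results of this list was not tested.

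Most metabolic genes of the FGF15 and FGF21 axes rose after birth. Among all genes, 17.9% were called higher at P5 and 20.1% at P10 against E15.5. Of 8 metabolic genes, 7 rose and 0 fell at P5 and at P10 against E15.5, with medians of 3.07 and 3.71. At P10 these included the nuclear receptor genes Pparg (3.62 ± 0.063), Ppara (3.94 ± 0.10), which drives Fgf21 in fasting liver, and Nr0b2 (5.03 ± 0.12), the mediator of bile acid feedback, and the bile acid uptake gene Slc10a1 (3.80 ± 0.20), the largest limma adjusted p of these 4 being 1.38e-06. Cyp7a1, the rate-limiting enzyme of bile acid synthesis that FGF15 represses, was named after its values were seen and rose by 4.0 ± 0.50 (limma adjusted p = 0.000264). Fgf15 itself differed by -0.03 at P10 and did not pass. Of the metabolic genes, Nr1h4 differed by 0.395 at P10 and did not pass (limma adjusted p = 0.0964). The part of the hepatocyte markers in the results of this list was not tested.

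**Figure D3:**
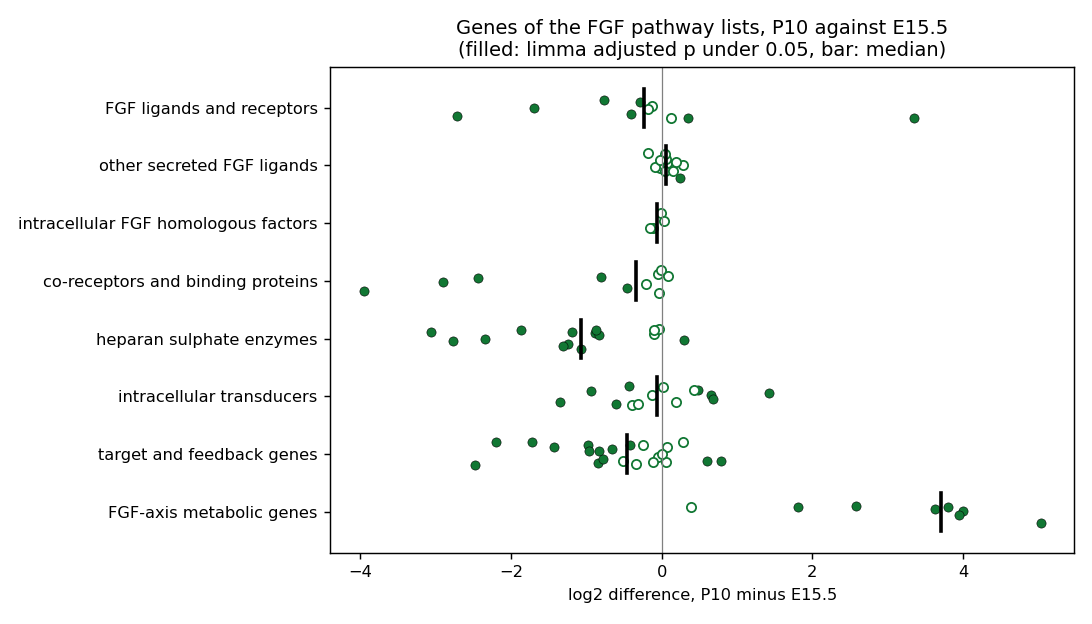
Log2 difference at P10 against E15.5 (horizontal axis) of the genes of each pathway list (vertical axis), with a point per gene, filled where the limma adjusted p was under 0.05, and a bar at the list median. The medians lie at -1.07 for heparan sulphate enzymes and 3.71 for FGF-axis metabolic genes, with the 10 ligands and receptors at -0.24.

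The genes whose profiles lay nearest to those of Fgf1, Fgfr2 and Fgfr1 were found by the root mean square difference between log2 profiles over the 9 arrays, each gene's own mean removed. Nearest to Fgf1, whose own root mean square deviation was 1.53, were the mitochondrial carrier gene Slc25a13 (0.13), the aminotransferase gene Agxt2 (0.14) and Shtn1 (0.14). Nearest to Fgfr2 (own deviation 1.16) were the protease inhibitor gene Reck (0.12), the membrane protein gene Stom (0.13) and the matrix peroxidase gene Pxdn (0.13). Nearest to Fgfr1 (own deviation 0.77) were the formin gene Fhod1 (0.099), the adhesion gene Tns3 (0.10) and the hydroxylase gene Asph (0.10).

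**Figure D4:**
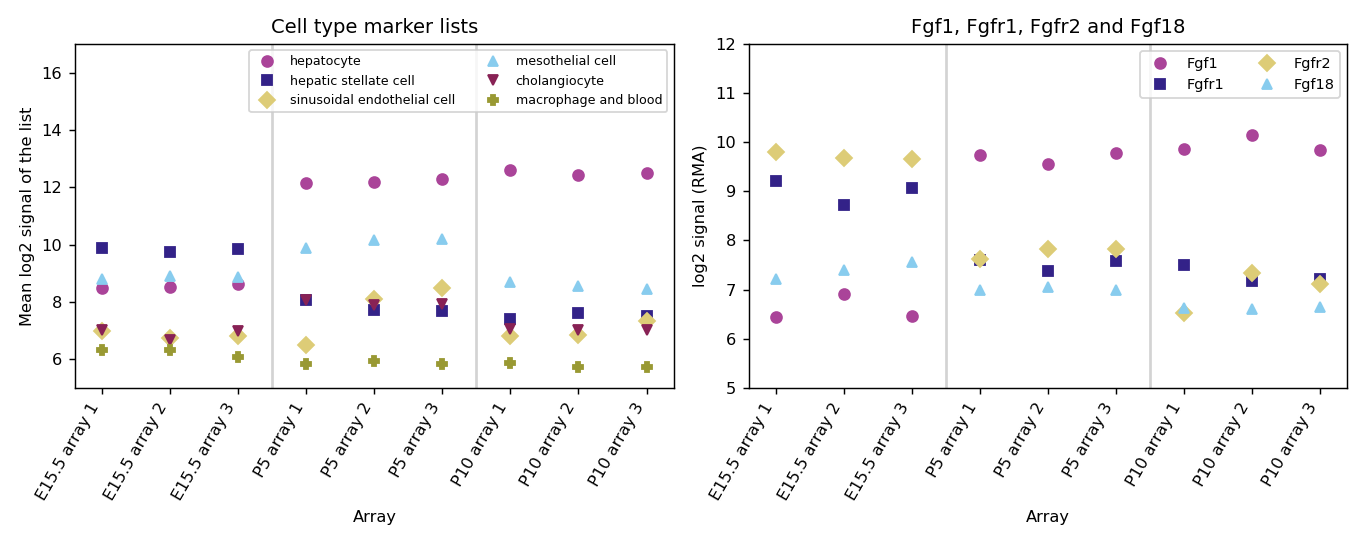
Left, mean log2 signal of 6 cell type marker lists on each array. Right, log2 signal of Fgf1, Fgfr1, Fgfr2 and Fgf18 on the same arrays (horizontal axes, arrays by stage). The hepatocyte marker mean and Fgf1 are high on all 6 postnatal arrays. The stellate cell marker mean, Fgfr1 and Fgfr2 are low there, and the endothelial marker mean is high on P5 arrays 2 and 3.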

How the data were processed

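RNA of 9 samples was measured on Affymetrix arrays after Trizol extraction and biotin labelling of cRNA, per the labels. The deposited values are log2 signals made by the authors with RMA, per the submitters' processing notes. Transcriptome Analysis Console 2.0 and Affymetrix Expression Console are named there too. RMA removes background, equalises quantiles between arrays and summarises the probes of a probe set. No build is given in the sources used here. Between any 2 arrays, 2.61% to 4.96% of probe sets had equal values.

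Of 35556 probe sets, 21789 have 1 gene symbol, 1621 several and 12146 are not listed in the platform annotation. Symbols of 21698 were looked up by Entrez identifier in a RefSeq table, and where a gene had several probe sets, that of the highest mean was kept, leaving 19938 genes. Stage was fitted over all 9 arrays in limma 3.58.1 (statmod 1.5.0, R 4.3.3), with 6 residual degrees of freedom and 2.22 from the prior. Tests were 2-sided, with Benjamini-Hochberg adjustment over all genes. The fit was also run on simulated data with independent noise and few changed genes, which checks the fitting steps and not the calls reported here. Errors of differences are model standard errors. The labels give no pairing by array number, and none was fitted. Residuals of same-numbered arrays correlated at -0.079 to 0.069 across genes, with 0 of 9 pairs over 0.1. A correlation over all genes cannot exclude a pairing that affects only some of them.

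The members, lists and alternatives were chosen with earlier results of these data known. The naming rule took all 10 members and, per list, up to 4 called genes of smallest adjusted p at P10 against E15.5, up to 2 called the other way, and Klb, Kl and Fgfrl1. Alternatives were other scalings, a filter and a floor at percentile 30, averaged or all probe sets, 2 stages only, a replicate block, other variance models, array weights, an Eif2s3y covariate and leaving out arrays. Figures used matplotlib 3.10.9 under Python 3.11.15.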

Additional observations from a re-analysis of the deposited data

How the results depend on the processing

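The number of the 10 genes called lay between 4 and 6 over the 21 alternatives at P5 against E15.5 (6 as reported), between 5 and 7 at P10 against E15.5 (7) and, over 20 alternatives, between 5 and 7 in the F test (7). The 4 at P5 came with P5 arrays 2 and 3 left out, an alternative added once the data had been seen, and the 5 in the F test with those arrays, E15.5 array 1 or dim genes left out. At P10 against P5 the count of 1 became 0 after quantile normalisation, centring on the median gene, with all probe sets, a replicate block, the Eif2s3y covariate or without P5 arrays 2 and 3, became 2 with dim genes left out, and ranged from 0 to 1 when single arrays were left out. The replicate block left the counts at 6 and 7 against E15.5, and there it ended, of the calls named, only that of Klb. Fgf1, Fgfr1 and Fgfr2 passed against E15.5 in all 21 alternatives, with P10 differences from 3.25 to 3.50, -1.83 to -1.59 and -2.89 to -2.48. Over the alternatives for the 10 genes, 576 kept direction and side of the threshold, 31 lost the call and 4 gained it. In 13 the sign turned, all on differences that passed on neither side. Fgf2 at P5 against E15.5 ranged from -0.033 to 0.087 without single arrays and had -0.036 without P5 arrays 2 and 3. Fgf7 at P5 against E15.5 had 0.011 with the floor, and at P10 against P5 0.021 after quantile normalisation, 0.063 after centring, 0.017 with the Eif2s3y covariate and -0.059 to 0.054 without single arrays. Fgf10 at P10 against P5 had 0.006 after quantile normalisation, 0.034 after centring and -0.085 to 0.052 without single arrays, and Fgfr4 at P10 against E15.5 ranged from -0.064 (without E15.5 array 3) to 0.238. Kl at P10 against E15.5 had 0.001 after quantile normalisation, 0.092 after centring and, without single arrays, ranged from -0.078 to 0.054. With the floor, Fgf10 passed neither at P5 nor at P10 against E15.5 (adjusted p = 0.0968 and 0.0531), Spry3 not at P10 (0.577) and Fgf16 not at P5 (0.611). Fgf18 at P10 against P5 held in 7 of 21 alternatives, and with a trended, robust variance had 0.0551. Fgf8 lost its calls at P5 and P10 with a trended, robust variance (0.0717 and 0.0511), and at P5 without P5 arrays 2 and 3 (0.078). Among other secreted ligands, counts at P5 and P10 ranged from 1 to 4 and 0 to 5. With all probe sets in the fit, 10846 and 12072 were called at P5 and P10 against E15.5, against 7089 and 7716, since more features were tested. At P10 against P5, 1126 genes became 709 with only those stages, 747 without P5 array 2, and 586 and 730 without P10 arrays 2 and 3. Among the 10 genes, dim signals limit Fgf2, Fgf7, Fgf10 and Fgf21. The other causes were not tested.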
